A study of Homo sapiens with 6 samples.

Results

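The 41 genes of homologous recombination, the Fanconi anemia pathway, the recombination helicases and the damage checkpoint kinases were taken by symbol from the count table of U2OS cells. All 41 were among its 50550 rows, and all 41 were among the 21933 genes that had enough counts to be tested. U2OS is an established human osteosarcoma line. The libraries labelled Lv_LINC00673 (n = 3) were set against those labelled Lv_NC (n = 3). LINC00673 is a long noncoding RNA, and the series describes the first group as cells in which it was knocked down and the other as wild-type cells. The labels say neither what NC and Lv stand for nor which construct was used, and no other allele, agent or time is given for either group. No label ties the libraries to separate cultures. The p-values therefore cover only how far these 6 libraries spread, and part of that may be technical.

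Homologous recombination repairs a DNA double-strand break by copying an intact sister chromatid. The MRE11-RAD50-NBN complex with RBBP8, EXO1 and DNA2 trims the ends to single strands, BRCA1, BARD1, PALB2 and BRCA2 prepare these strands for pairing with the sister, the BCDX2 and CX3 complexes assist, and BLM with TOP3A, RMI1 and RMI2 takes the joined molecules apart. The Fanconi proteins act when the strands are crosslinked: a core complex ubiquitinates FANCD2 and FANCI, which directs incision and recombination. ATM, ATR with ATRIP, and PRKDC are kinases that sense breaks or single-stranded DNA, CHEK1 and CHEK2 pass the signal to the cell cycle, and TP53BP1 with RIF1 holds back resection and favours end joining.

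Expression of these genes did not move as a block. In Lv_LINC00673 cells 22 of the 41 rose, 2 fell (FANCE and CHEK2) and 17 were not past the threshold (adjusted p under 0.05; edgeR's quasi-likelihood test, Benjamini-Hochberg over all 21933 genes). Of all genes tested, 14.3% rose and 12.5% fell. The median log2 fold change of the 41 was 0.82, against 0.05 over all genes tested, and the values ran from -0.57 for FANCE to 2.03 for ATR. Rises of at least 2-fold that passed were found in 18 of the 41, where 7.55% of all tested genes rose by that much and passed. Every resection gene and every BRCA mediator in the set rose, whereas 1 of the 5 subunits of the BCDX2 and CX3 complexes and none of the strand exchange partners RAD52, RAD54L and RAD54B did.

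The genes that rose were AT-rich and long, and the same leaning was present across the whole table, so base composition is shown first. Each line below is 120 bases of coding sequence from the GENCODE release 29 transcript, 5′ to 3′, with G and C in capitals. Of the consecutive 120-base windows of each coding sequence, the one nearest in GC content to the whole transcript was picked. Its likeness to the transcript was thus set in advance. ATR and RMI1 are among the genes that rose most, and CHEK2 and FANCE are the genes that fell.
ATR: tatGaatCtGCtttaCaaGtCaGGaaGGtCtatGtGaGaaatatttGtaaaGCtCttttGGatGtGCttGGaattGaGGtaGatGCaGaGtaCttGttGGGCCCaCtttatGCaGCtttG
RMI1: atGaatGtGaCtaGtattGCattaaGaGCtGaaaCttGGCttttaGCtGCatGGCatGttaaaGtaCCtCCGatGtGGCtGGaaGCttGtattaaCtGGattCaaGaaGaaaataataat
CHEK2: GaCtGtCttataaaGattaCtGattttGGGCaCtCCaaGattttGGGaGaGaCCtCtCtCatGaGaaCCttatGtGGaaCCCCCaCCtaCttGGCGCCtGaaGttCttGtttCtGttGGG
FANCE: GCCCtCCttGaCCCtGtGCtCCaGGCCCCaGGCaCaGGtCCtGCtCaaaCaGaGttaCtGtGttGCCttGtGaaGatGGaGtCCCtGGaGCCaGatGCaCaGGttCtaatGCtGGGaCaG
G and C made up 40% of the ATR stretch (coding bases 1081 to 1200), 36.7% of that of RMI1 (bases 1 to 120), 45.8% of that of CHEK2 (bases 1081 to 1200) and 57.5% of that of FANCE (bases 1201 to 1320). Over the whole transcripts the GC content was 40.02% for ATR, 36.02% for RMI1, 45.13% for CHEK2 and 57.95% for FANCE.

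Total counts were 61815841 to 71237493 in the Lv_LINC00673 libraries and 76814723 to 87227980 in the Lv_NC libraries, and the members had 103 to 31721 counts in a library. LINC00673 itself had 479, 417 and 435 counts in the Lv_LINC00673 libraries, against 709, 751 and 516 in the Lv_NC libraries. Its level was 6.39 ± 0.159 CPM (counts scaled by TMM factors to a common library size) in Lv_LINC00673 cells and 8.5 ± 1.24 CPM in Lv_NC cells (SD, n = 3 each), and the groups did not overlap. That difference did not pass the threshold (log2 fold change -0.41, SE 0.16, adjusted p = 0.0924 in edgeR's test), although it passed in DESeq2 (adjusted p = 0.0429). Of 10 osteoblast or mesenchymal markers, 6 (VIM, SPARC, COL1A1, ALPL, CDH2 and RUNX2) were at 1 CPM or more in every library, SP7, BGLAP and COL1A2 were below it and TWIST1 had 0 counts. The markers summed to 3188 to 3556 CPM in Lv_LINC00673 libraries and 2766 to 2985 CPM in Lv_NC libraries. VIM made up most of that sum, at 1999 to 2768 CPM over the 6 libraries. It rose (log2 fold change 0.34, adjusted p = 0.014 in edgeR's test), as did RUNX2, ALPL and CDH2. SPARC fell (log2 fold change -0.36, adjusted p = 0.0141) and COL1A1 did not pass. The 5 blood markers were all under 1 CPM, with HBB at 0, and summed to 0.161 to 0.273 CPM in Lv_LINC00673 libraries and 0.0775 to 0.466 CPM in Lv_NC libraries. The 4 endothelial markers summed to 5.32 to 6.59 CPM in Lv_LINC00673 libraries and 4.02 to 4.27 CPM in Lv_NC libraries, and the 4 epithelial markers to 4.21 to 4.75 CPM in Lv_LINC00673 libraries and 3.79 to 4.06 CPM in Lv_NC libraries. The 3 neural markers summed to 40.5 to 45.2 CPM in Lv_LINC00673 libraries and 49.3 to 54.4 CPM in Lv_NC libraries, and the part of these marker levels in the results was not tested. Of 3 genes listed for the known background of U2OS cells, TERT and CDKN2A, which these cells are known not to express, were under 1 CPM in every library. The other, ATRX, was counted in every library, at 22.9, 33.4 and 29.1 CPM in Lv_LINC00673 libraries, against 15.5, 7.97 and 11.3 CPM in Lv_NC libraries. Counts per gene do not show whether the ATRX transcript is intact or whether a protein is made from it. In bulk RNA, a smaller share of cells that express a gene and less of its RNA per cell cannot be told apart.

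**Figure D1:**
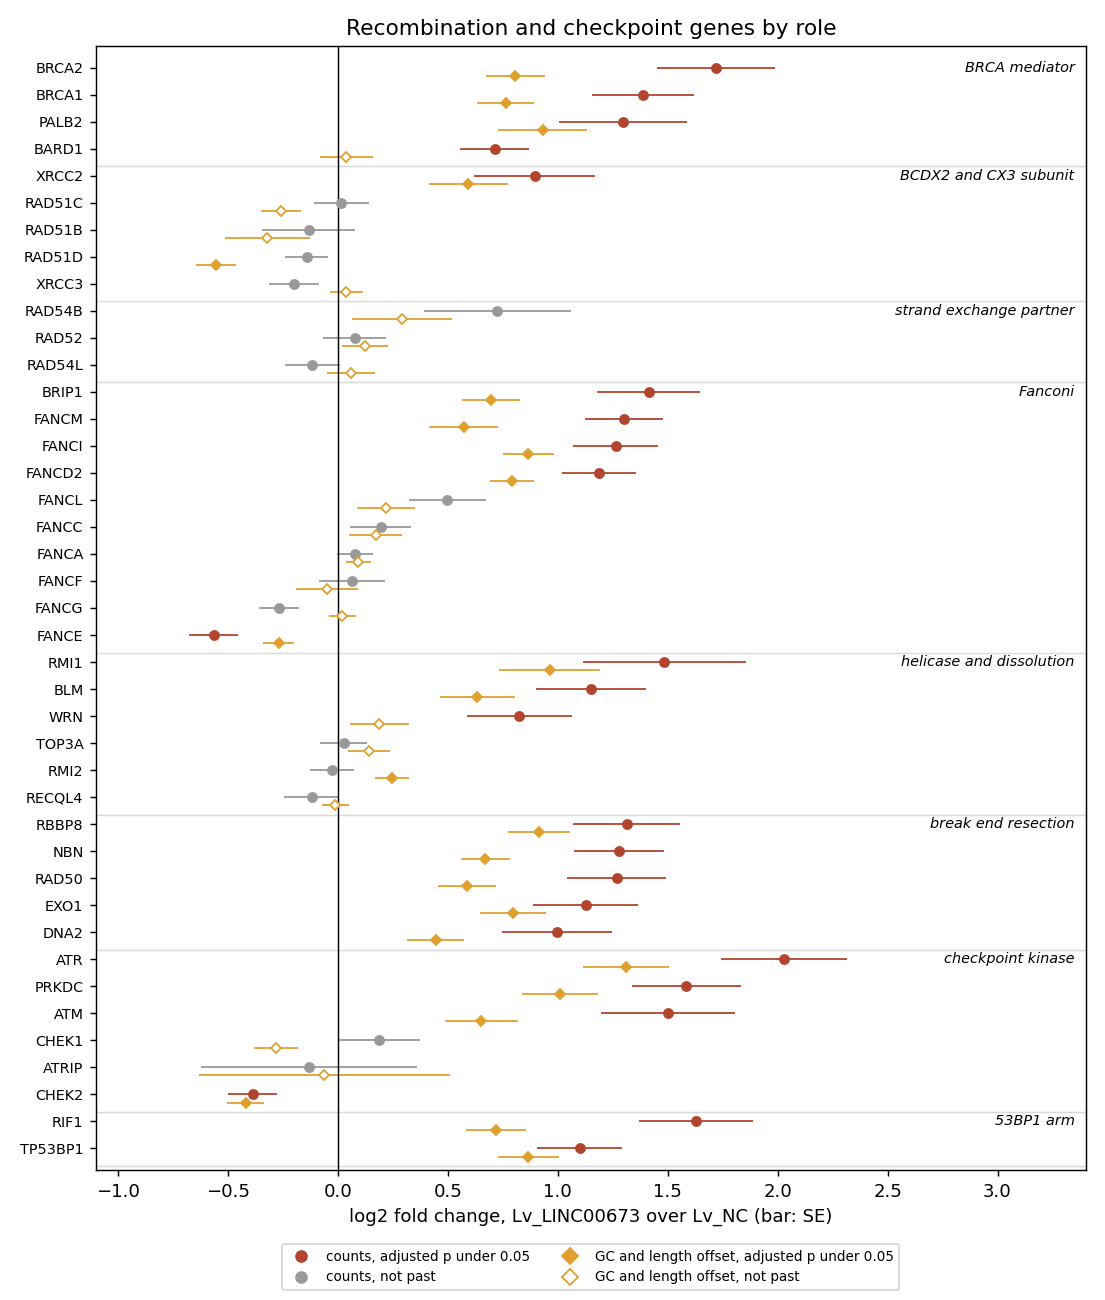
Log2 fold change of each of the 41 genes, Lv_LINC00673 over Lv_NC, grouped by role, from the counts (circles) and from the fit with a GC and length offset (diamonds); bars are SE and filled diamonds or red circles passed an adjusted p of 0.05. All circles of resection genes and BRCA mediators lie right of 0, FANCE and CHEK2 lie left of it, and most diamonds lie nearer to 0.

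Because of that leaning, each gene was also fitted with an offset, estimated in each library from the GC content and length of all expressed genes. The offset fit held 16912 genes, all 41 members among them, and called 16.6% of its genes higher and 15.2% lower, where the same genes without the offset gave 17.8% and 15.1%. With it 21 members were higher, 3 were lower and 17 did not pass. Among the 22 that rose, 20 passed again and BARD1 and WRN did not. RMI2 was then called higher, and RAD51D joined FANCE and CHEK2 among the lower genes. The median log2 fold change of the 41 was 0.29 with the offset, against 0.06 over all genes in that fit.

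All 5 members that trim break ends rose, with log2 fold changes of 1.00 to 1.31 (median 1.27, and 0.67 with the offset). RBBP8, known as CtIP, which starts resection, had 15.2, 18.9 and 18.0 CPM in Lv_LINC00673 libraries, against 9.07, 4.54 and 7.34 CPM in Lv_NC libraries. Every Lv_LINC00673 library was above every Lv_NC library, and the gene was 2.49-fold higher (log2 fold change 1.31, SE 0.24, adjusted p = 0.00806). NBN, the subunit of the MRE11 complex that recruits ATM, had 12.6, 18.2 and 14.7 CPM in Lv_LINC00673 libraries, against 7.48, 4.94 and 6.34 CPM in Lv_NC libraries. RAD50, the ATPase of that complex, had 9.29, 13.7 and 11.1 CPM in Lv_LINC00673 libraries, against 6.09, 3.91 and 4.17 CPM in Lv_NC libraries. Both were higher in every Lv_LINC00673 library than in any Lv_NC library, NBN by 2.43-fold (log2 fold change 1.28, SE 0.21, adjusted p = 0.00555) and RAD50 by 2.41-fold (log2 fold change 1.27, SE 0.23, adjusted p = 0.00725). The annotated exons of RAD50 share 90.6% of their bases with other annotated genes, so its reads are uncertain unless they were split by gene.

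The long-range nucleases had the smallest log2 fold changes of the 5. EXO1, a 5′ to 3′ exonuclease, had 14.1, 19.8 and 14.7 CPM in Lv_LINC00673 libraries, against 9.81, 5.41 and 7.02 CPM in Lv_NC libraries (log2 fold change 1.13, SE 0.24, adjusted p = 0.0118). DNA2, a nuclease and helicase that works with BLM or WRN, had 10.9, 16.1 and 13.5 CPM in Lv_LINC00673 libraries, against 9.07, 4.80 and 6.45 CPM in Lv_NC libraries (log2 fold change 1.00, SE 0.25, adjusted p = 0.0209). The groups did not overlap for either gene. DNA2 did not pass without Lv_LINC00673 library 2 (adjusted p = 0.0774) or library 3 (0.0668) or without Lv_NC library 3 (0.0787), and EXO1 did not pass without Lv_NC library 3 (adjusted p = 0.0531). With the offset, all 5 resection genes passed, from a log2 fold change of 0.44 for DNA2 (adjusted p = 0.0284) to 0.91 for RBBP8 (adjusted p = 0.00158).

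The 4 BRCA mediator genes, which act on the single strands after resection, all rose (median log2 fold change 1.34). BRCA2, the largest of these proteins, had 8.08, 15.2 and 11.3 CPM in Lv_LINC00673 libraries, against 4.32, 2.68 and 3.48 CPM in Lv_NC libraries. It was 3.30-fold higher (log2 fold change 1.72, SE 0.27, adjusted p = 0.00534), and its lowest Lv_LINC00673 library was above its highest Lv_NC library. BRCA1, the E3 ligase subunit that promotes resection and recruits PALB2, had 18.4, 28.2 and 18.7 CPM in Lv_LINC00673 libraries, against 10.5, 6.47 and 8.06 CPM in Lv_NC libraries. PALB2, the bridge between BRCA1 and BRCA2, had 5.00, 7.96 and 7.75 CPM in Lv_LINC00673 libraries, against 3.95, 2.00 and 2.47 CPM in Lv_NC libraries. Neither pair of groups overlapped, and BRCA1 was 2.61-fold higher (log2 fold change 1.39, SE 0.23, adjusted p = 0.00623) and PALB2 2.46-fold higher (log2 fold change 1.30, SE 0.29, adjusted p = 0.0144). BARD1, the partner of BRCA1, had 13.9, 18.6 and 16.0 CPM in Lv_LINC00673 libraries, against 10.2, 8.91 and 10.5 CPM in Lv_NC libraries.

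BARD1 rose least of the 4 (1.64-fold, log2 fold change 0.71, SE 0.16, adjusted p = 0.0134). With the offset its log2 fold change was 0.04 (adjusted p = 0.84), while BRCA1, PALB2 and BRCA2 stayed past the threshold at 0.76, 0.93 and 0.81. The BARD1 transcript has a GC content of 38.04%. PALB2 lost its call without Lv_LINC00673 library 2 (adjusted p = 0.0552) or library 3 (0.0565) and without Lv_NC library 3 (0.0626), and BARD1 without Lv_LINC00673 library 2 (0.056) or library 3 (0.0525).

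The 5 genes RAD51B, RAD51C, RAD51D, XRCC2 and XRCC3, which encode the subunits of the BCDX2 and CX3 complexes of strand pairing, had a median log2 fold change of -0.13 (-0.26 with the offset), and 4 of the 5 did not pass. XRCC2 was the one that rose. It had 7.98, 14.6 and 13.0 CPM in Lv_LINC00673 libraries, against 7.53, 4.43 and 7.15 CPM in Lv_NC libraries. The lowest Lv_LINC00673 library was close to the highest Lv_NC library, the log2 fold change was 0.89 (SE 0.27, adjusted p = 0.0422), and the call was lost without Lv_LINC00673 library 2 (adjusted p = 0.147) or library 3 (0.13) and without Lv_NC library 2 (0.0997) or library 3 (0.09). In the deposited FPKM values it did not pass either (limma on log2(FPKM + 1), adjusted p = 0.0596). XRCC3, at the other end, had 58.1, 51.6 and 51.4 CPM in Lv_LINC00673 libraries, against 53.8, 68.4 and 62.8 CPM in Lv_NC libraries, and the groups overlapped (log2 fold change -0.20, adjusted p = 0.232).

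RAD51C, RAD51D and RAD51B had log2 fold changes of 0.02, -0.14 and -0.13 (adjusted p = 0.944, 0.315 and 0.678). RAD51D had 27.5, 28.9 and 28.5 CPM in Lv_LINC00673 libraries, against 31.8, 31.3 and 30.7 CPM in Lv_NC libraries. All of its Lv_LINC00673 libraries were thus below all Lv_NC libraries by a small margin. In the offset fit RAD51D was called lower (-0.55 on the log2 scale, SE 0.09, adjusted p = 0.0021). The transcript used for its length has 9988 bases, of which 5.87% lie in exons of other genes, among them the read-through gene RAD51L3-RFFL. Adding that row to RAD51D gave a log2 fold change of -0.14 (adjusted p = 0.334).

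None of the 3 partners of strand exchange passed. RAD54B, a motor protein of the same family as RAD54L, had 3.69, 6.01 and 4.72 CPM in Lv_LINC00673 libraries, against 3.58, 1.53 and 3.62 CPM in Lv_NC libraries (log2 fold change 0.72, SE 0.34, adjusted p = 0.144). RAD54L, which drives strand invasion, had 52.6, 52.6 and 44.1 CPM in Lv_LINC00673 libraries, against 54.5, 60.8 and 46.6 CPM in Lv_NC libraries (log2 fold change -0.12, SE 0.13, adjusted p = 0.537). RAD54B did not overlap between the groups, but its SE was large, and 71.1% of its exon bases are shared with FSBP on the same strand. RAD52, which anneals single strands, lay between them at a log2 fold change of 0.08 (adjusted p = 0.734).

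Of the 10 Fanconi genes 4 rose, 1 fell and 5 did not pass (median log2 fold change 0.35, and 0.19 with the offset). The ubiquitinated pair FANCD2 and FANCI, the translocase FANCM that anchors the core complex to DNA, and the helicase BRIP1 rose. Of the 6 genes of the core complex other than FANCM, FANCE fell and FANCA, FANCC, FANCF, FANCG and FANCL did not pass. FANCI had 55.7, 73.0 and 57.0 CPM in Lv_LINC00673 libraries, against 33.6, 20.7 and 23.1 CPM in Lv_NC libraries. FANCD2 had 26.2, 31.1 and 25.7 CPM in Lv_LINC00673 libraries, against 14.5, 9.89 and 12 CPM in Lv_NC libraries. The groups were well apart for both, with FANCI 2.40-fold higher (log2 fold change 1.26, SE 0.19, adjusted p = 0.0051) and FANCD2 2.27-fold higher (log2 fold change 1.19, SE 0.17, adjusted p = 0.00446). With the offset their log2 fold changes were 0.87 and 0.79 (adjusted p = 0.000867 and 0.000737).

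BRIP1, the helicase that binds BRCA1, had 12.6, 22.1 and 15.1 CPM in Lv_LINC00673 libraries, against 6.96, 5.05 and 6.69 CPM in Lv_NC libraries (2.66-fold higher, log2 fold change 1.41, SE 0.23, adjusted p = 0.00592). FANCM had 7.35, 8.11 and 7.0 CPM in Lv_LINC00673 libraries, against 3.46, 2.54 and 3.11 CPM in Lv_NC libraries (2.46-fold higher, log2 fold change 1.30, SE 0.18, adjusted p = 0.00429). With the offset their log2 fold changes were 0.70 and 0.57 (adjusted p = 0.00422 and 0.0221). In FANCM the 3 libraries of each group were close together in CPM and the groups far apart. In the deposited FPKM values, however, the FANCM groups overlapped and the gene did not pass (adjusted p = 0.105 in limma on log2(FPKM + 1)).

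FANCE, the core subunit that binds FANCD2, had 35.5, 30.3 and 32.8 CPM in Lv_LINC00673 libraries, against 44.7, 52.8 and 48.5 CPM in Lv_NC libraries. It was 1.48-fold lower without overlap (log2 fold change -0.57, SE 0.11, adjusted p = 0.00918) and passed whichever library was left out, and also in the offset fit (-0.27 on the log2 scale, adjusted p = 0.0187). With the replicate number as a block in edgeR's test FANCE did not pass (adjusted p = 0.065), nor with that block and the offset (0.0648). FANCG, another core subunit, had 82.8, 71.6 and 79.9 CPM in Lv_LINC00673 libraries, against 90.2, 96.7 and 95.0 CPM in Lv_NC libraries, also without overlap. It missed the threshold (log2 fold change -0.27, SE 0.09, adjusted p = 0.0564), passed in DESeq2 (adjusted p = 0.0382), and had a log2 fold change of 0.02 with the offset. FANCL, the E3 ligase subunit, had 9.44, 11.8 and 9.59 CPM in Lv_LINC00673 libraries, against 7.74, 6.04 and 8.05 CPM in Lv_NC libraries, and missed it in the other direction (log2 fold change 0.50, SE 0.17, adjusted p = 0.0652 in edgeR, 0.0368 in DESeq2), with 27% of its exon bases shared with genes on the opposite strand. FANCA, FANCC and FANCF had log2 fold changes of 0.08, 0.19 and 0.06, with adjusted p = 0.531, 0.337 and 0.786.

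**Figure D2:**
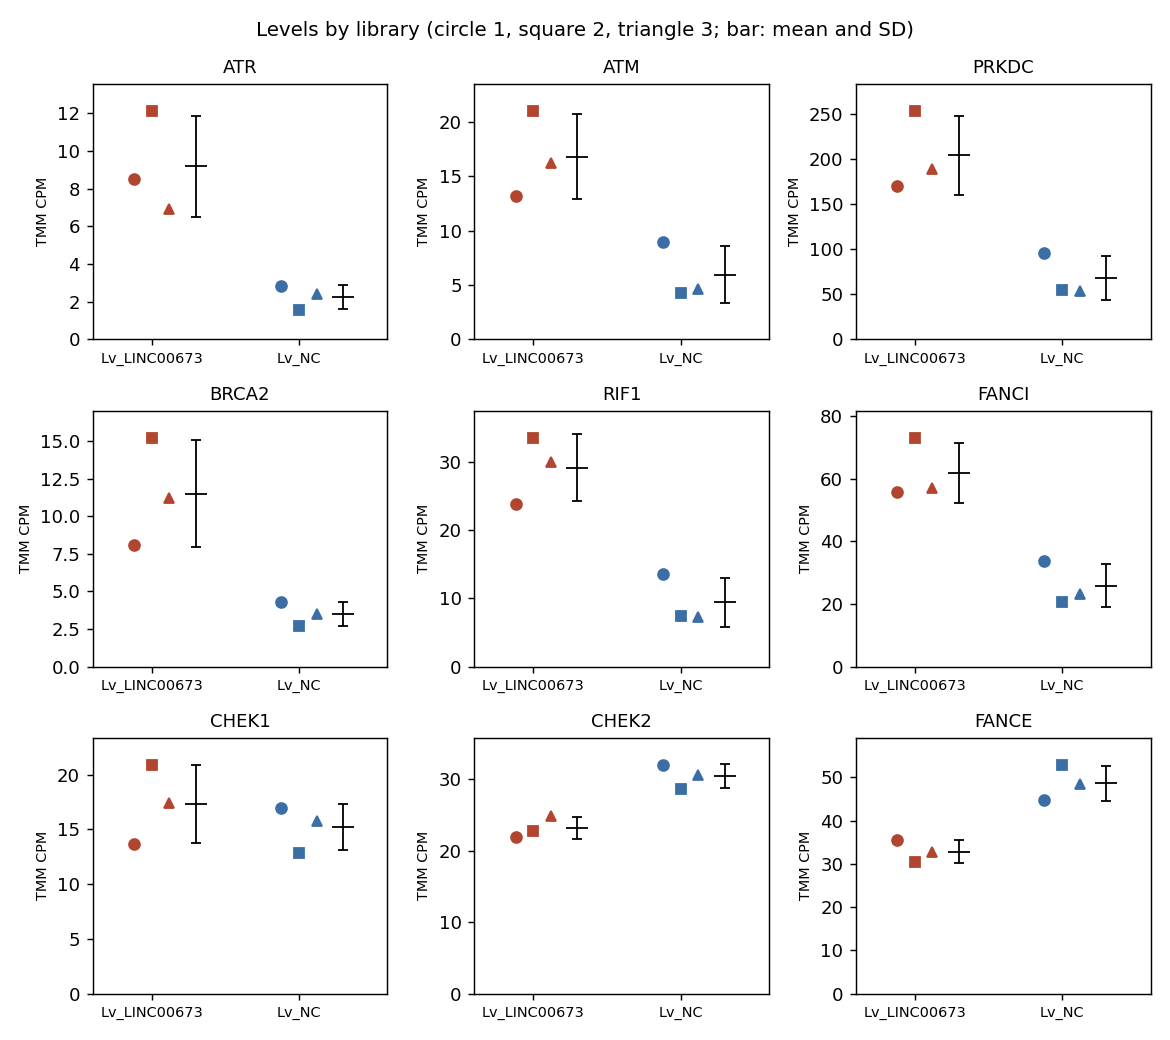
TMM-scaled CPM of 9 genes in each library, Lv_LINC00673 left of Lv_NC; circles, squares and triangles are libraries 1, 2 and 3 and bars give the mean and SD of 3. In ATR, ATM, PRKDC, BRCA2, RIF1 and FANCI all Lv_LINC00673 points lie above all Lv_NC points, CHEK1 overlaps, and in CHEK2 and FANCE all Lv_LINC00673 points lie below.

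Of the 6 helicase and dissolution genes, RMI1, BLM and WRN rose and TOP3A, RMI2 and RECQL4 did not pass. RMI1, the scaffold that joins BLM to TOP3A, had 3.17, 7.36 and 6.48 CPM in Lv_LINC00673 libraries, against 2.79, 1.27 and 2.02 CPM in Lv_NC libraries. Its 2.80-fold rise (log2 fold change 1.48, SE 0.37, adjusted p = 0.0207) rested on few counts (103 to 493 in a library) and was lost without Lv_LINC00673 library 2 (adjusted p = 0.0774) or library 3 (0.073) or Lv_NC library 3 (0.0743). BLM, the Bloom syndrome helicase, had 14.6, 16.7 and 14.0 CPM in Lv_LINC00673 libraries, against 8.31, 4.21 and 7.89 CPM in Lv_NC libraries (2.22-fold higher, log2 fold change 1.15, SE 0.25, adjusted p = 0.0128). WRN, the Werner syndrome helicase, had 10.9, 19.4 and 13.3 CPM in Lv_LINC00673 libraries, against 9.79, 6.67 and 8.12 CPM in Lv_NC libraries (1.77-fold higher, log2 fold change 0.82, SE 0.24, adjusted p = 0.0346). The groups of BLM were well apart, while those of WRN nearly met.

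WRN was not called in the offset fit (0.19 on the log2 scale, adjusted p = 0.32), nor without Lv_LINC00673 library 2 (adjusted p = 0.121) or library 3 (0.0791) or Lv_NC library 2 (0.0924) or library 3 (0.104). RECQL4, mutated in Rothmund-Thomson syndrome, had 396, 296 and 301 CPM in Lv_LINC00673 libraries, against 340, 392 and 347 CPM in Lv_NC libraries, and the groups overlapped (log2 fold change -0.12, adjusted p = 0.519). RMI2 had 26.7, 26.4 and 27.4 CPM in Lv_LINC00673 libraries, against 26.4, 28.1 and 27.6 CPM in Lv_NC libraries. The groups overlapped, yet the offset gave a log2 fold change of 0.25 and a call (adjusted p = 0.0378), where the counts gave -0.03 (adjusted p = 0.868). TOP3A, the topoisomerase of the complex, had a log2 fold change of 0.03 (adjusted p = 0.888). The table also holds a second row for that gene, named TOP3A-2, with 1578 to 1903 counts in Lv_LINC00673 libraries and 1878 to 2171 in Lv_NC libraries, and adding it to TOP3A gave a log2 fold change of -0.01 (adjusted p = 0.954).

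The 3 large kinases that sense damage held 3 of the 5 largest log2 fold changes of the set. Of the 2 kinases they activate, CHEK1 did not pass and CHEK2 fell. ATR, which responds to single-stranded DNA, had 8.5, 12.1 and 6.94 CPM in Lv_LINC00673 libraries, against 2.82, 1.54 and 2.40 CPM in Lv_NC libraries. Its lowest Lv_LINC00673 library was above its highest Lv_NC library, and at 4.08-fold it had the largest log2 fold change of the 41 (2.03, SE 0.29, adjusted p = 0.00442). RefSeq places ATR on chromosome 3 from 142449235 to 142578733 in GRCh38.p14, and none of its annotated exons lies in an exon of another gene. PRKDC, the catalytic subunit of the DNA-dependent kinase of end joining, had 170.0, 252.9 and 188.8 CPM in Lv_LINC00673 libraries, against 95.8, 54.7 and 53.3 CPM in Lv_NC libraries. ATM, which responds to double-strand breaks, had 13.2, 21.0 and 16.3 CPM in Lv_LINC00673 libraries, against 8.97, 4.25 and 4.62 CPM in Lv_NC libraries.

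Neither of those pairs of groups overlapped. PRKDC was 3.00-fold higher (log2 fold change 1.59, SE 0.25, adjusted p = 0.00568) and ATM 2.83-fold higher (log2 fold change 1.5, SE 0.31, adjusted p = 0.0105). With the offset, the log2 fold changes were 1.31 for ATR, 1.01 for PRKDC and 0.65 for ATM (adjusted p = 0.00141, 0.0066 and 0.0158). In the deposited FPKM values the ATM groups overlapped and the gene did not pass (adjusted p = 0.112 in limma on log2(FPKM + 1)).

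CHEK1, the kinase downstream of ATR, had 13.7, 20.8 and 17.4 CPM in Lv_LINC00673 libraries, against 17.0, 12.8 and 15.8 CPM in Lv_NC libraries. The groups overlapped (log2 fold change 0.19, SE 0.18, adjusted p = 0.498), and with the offset the log2 fold change was -0.28 (adjusted p = 0.0587). CHEK2, the kinase downstream of ATM, had 21.9, 22.8 and 24.9 CPM in Lv_LINC00673 libraries, against 31.9, 28.6 and 30.6 CPM in Lv_NC libraries. It was 1.31-fold lower without overlap (log2 fold change -0.39, SE 0.11, adjusted p = 0.0332), and the offset left it there (-0.42 on the log2 scale, adjusted p = 0.0052). Leaving out any one library raised the adjusted p to between 0.0521 and 0.0949, and library totals without TMM factors gave 0.19. In the deposited FPKM values the CHEK2 groups overlapped and the gene did not pass (adjusted p = 0.162 in limma on log2(FPKM + 1)).

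ATRIP, the partner that brings ATR to single-stranded DNA, had 23.8, 7.07 and 21.8 CPM in Lv_LINC00673 libraries, against 24.6, 11 and 22.1 CPM in Lv_NC libraries. Library 2 of each group was low, and the SE of its log2 fold change was the largest of the 41 (-0.13, SE 0.49, adjusted p = 0.87). A separate row for the read-through gene ATRIP-TREX1 had 407, 1282 and 183 counts in Lv_LINC00673 libraries, against 241, 1385 and 308 in Lv_NC libraries. It was high in the same libraries in which ATRIP was low. The rows added together gave 29.3, 26.2 and 24.5 CPM in Lv_LINC00673 libraries, against 27.7, 28.1 and 26.3 CPM in Lv_NC libraries, with a log2 fold change of -0.04 (SE 0.11, adjusted p = 0.841). The low ATRIP values of the second libraries were matched by reads listed under the read-through name.

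**Figure D3:**
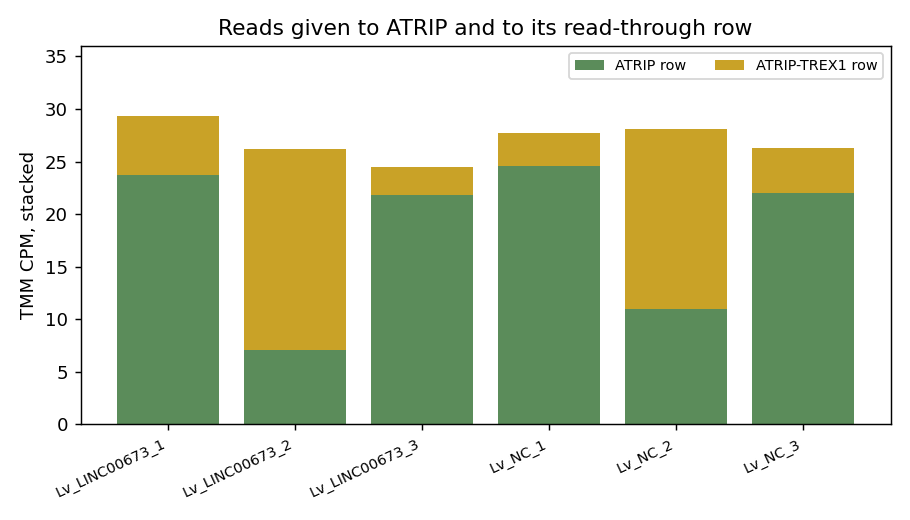
TMM-scaled CPM listed under ATRIP (lower part of each bar) and under the read-through gene ATRIP-TREX1 (upper part) in each of the 6 libraries. The parts trade places in library 2 of both groups, while the full bars lie between 24.5 and 29.3 CPM.

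The pair that holds back resection rose as the resection genes did. RIF1, which acts downstream of TP53BP1, had 23.8, 33.5 and 30.1 CPM in Lv_LINC00673 libraries, against 13.5, 7.42 and 7.30 CPM in Lv_NC libraries. TP53BP1, which binds modified chromatin at breaks, had 36.7, 50.1 and 35.5 CPM in Lv_LINC00673 libraries, against 23.7, 15.5 and 17.8 CPM in Lv_NC libraries. The groups did not overlap for either, and RIF1 was 3.09-fold higher (log2 fold change 1.63, SE 0.26, adjusted p = 0.00541) and TP53BP1 2.14-fold higher (log2 fold change 1.10, SE 0.19, adjusted p = 0.0071). With the offset their log2 fold changes were 0.72 and 0.87 (adjusted p = 0.00416 and 0.00186). TP53BP1 has the highest GC content of the genes that rose, 48.0%.

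Levels can be compared between genes only per transcript length, in the deposited FPKM values (fragments scaled by transcript length and library size). In Lv_NC cells the lowest member was ATR, at 0.247 ± 0.0756 FPKM, next to BRCA2 at 0.266 ± 0.0661 FPKM (SD, n = 3 each). Their means differed by less than either SD, although BRCA2 was above ATR in each Lv_NC library. The highest was RECQL4 at 84.1 ± 5.29 FPKM, well above FANCG at 33.4 ± 0.828 FPKM and FANCA at 32.9 ± 0.430 FPKM. The means of FANCG and FANCA differed by less than the SD of FANCG, although FANCG was above FANCA in each Lv_NC library. In Lv_LINC00673 cells the same genes were at 1.13 ± 0.349 FPKM for ATR, 0.985 ± 0.329 FPKM for BRCA2, 86.4 ± 11.3 FPKM for RECQL4, 31.1 ± 1.64 FPKM for FANCG and 34.0 ± 0.318 FPKM for FANCA. In FPKM the groups did not overlap in 25 members that were higher, where 29.7% of all tested genes did so. In limma on log2(FPKM + 1), 20 members passed as higher and 1 as lower, where 15.7% and 5.52% of all tested genes did, and that scale understates the change of low genes.

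Across the 41 genes, the log2 fold change ran with the GC content and length of the transcript. Spearman's rho was -0.72 with GC content and 0.67 with length, against -0.42 and 0.32 across the 16912 genes with both values. These are descriptions across genes of the same 6 libraries, which are not independent replicates. Of 25 members under 45% GC, 20 rose and 0 fell, where 34.4% of the 5452 tested genes under 45% GC rose and 4.46% fell. Of 16 members at 45% or more, 2 rose (PRKDC and TP53BP1) and 2 fell, where 7.84% of the 11460 tested genes in that range rose and 19.2% fell, so the counts of these 16 were small in both directions. Members that rose had GC contents of 36.02 to 48.0% and lengths of 3067 to 15003 bases, and the median GC content was 40.02% in them, 50.31% in those that did not pass and 50% over all tested genes. With the offset, rho was -0.48 with GC content and 0.48 with length, so the offset did not take the relation away.

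**Figure D4:**
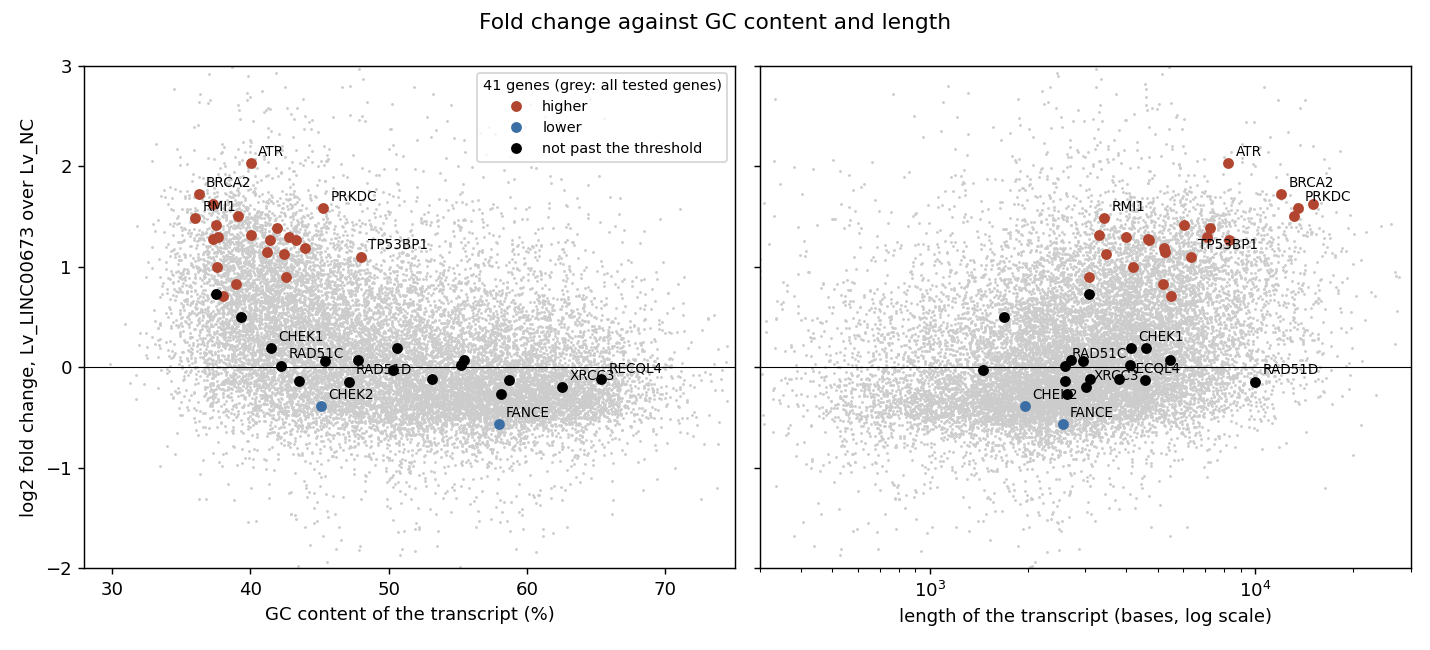
Log2 fold change, Lv_LINC00673 over Lv_NC, of all tested genes with a matched transcript (grey) and of the 41 genes (red higher, blue lower, black not past the threshold) against GC content in percent and against transcript length on a log axis. The genes that rose lie between 36.02 and 48.0% GC, and the grey cloud also slopes down with GC content and up with length.

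The libraries of a group differed along the same line. The median level of the tenth of expressed genes with the lowest GC content (39.3% or less), minus that of the tenth with the highest (62.5% or more), was -0.02, 0.76 and 0.58 on the log2 scale in Lv_LINC00673 libraries 1 to 3, against -0.11, -0.86 and -0.35 in Lv_NC libraries 1 to 3. The median level of the 22 genes that rose, relative to each gene's mean over the 6 libraries, was 0.41, 0.90 and 0.61 in Lv_LINC00673 libraries, against -0.25, -0.99 and -0.62 in Lv_NC libraries. Lv_LINC00673 library 2 was the highest of its group in 22 of these 22 genes, and Lv_NC library 2 the lowest of its group in 20. The first libraries of the groups were nearly equal in that GC measure. Between them alone, Lv_LINC00673 library 1 was above Lv_NC library 1 in 22 of the 22 genes, with a median log2 ratio of 0.74 and a range of 0.08 to 1.59, and it was below in FANCE (-0.33) and CHEK2 (-0.54). The 17 members that did not pass had a median log2 ratio of 0.02 between the same libraries. These ratios compare 1 library with 1 library and carry no test, and the 22 genes were called in a fit that held both. None of the 22 overlapped between the groups in CPM, so the direction of their ratios was fixed in advance. Across the 41 genes the ratio between the first libraries still ran with GC content (Spearman's rho -0.53) and with length (0.68).

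**Figure D5:**
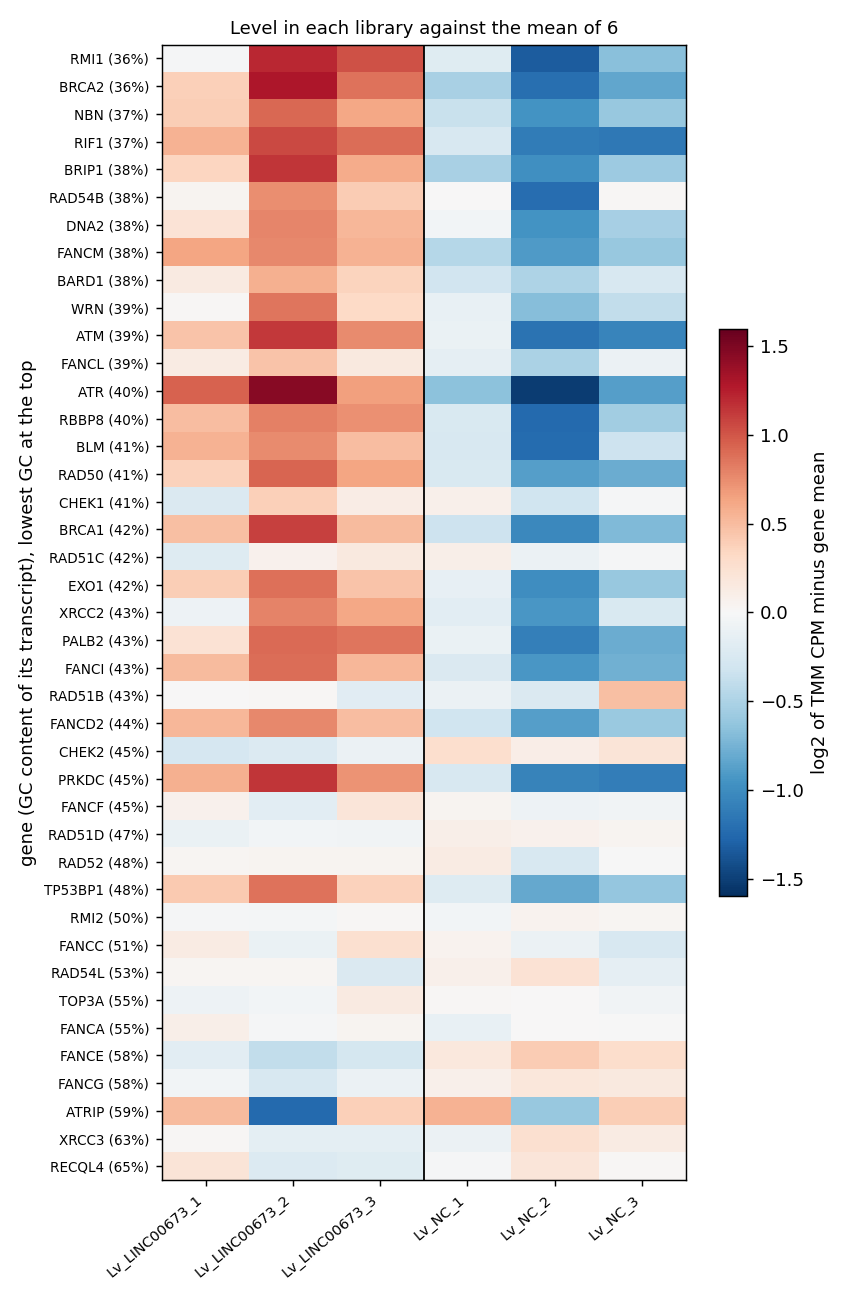
Level of each of the 41 genes in each library (log2 of TMM-scaled CPM minus the mean over 6 libraries, red above and blue below), with the lowest GC content at the top and Lv_LINC00673 libraries left of Lv_NC libraries. In the upper part of the plot colour is mostly deepest in library 2 of both groups, and most GC-rich genes at the bottom are pale, with the exception of ATRIP (59% GC), which is deep blue in library 2 of both.

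Leaving out one library at a time, 15 of the 22 genes that rose passed in all 6 fits; the others were BARD1, PALB2, XRCC2, WRN, RMI1, EXO1 and DNA2. Groups did not overlap in CPM in 24 members that were higher and 4 that were lower, where 23.7% and 21.4% of all tested genes did so.

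Annotated exons of XRCC3 share 45% of their bases with KLC1 on the opposite strand, those of FANCL 27% with VRK2 and another gene, those of FANCA 25.6% with ZNF276, those of RAD54L 18.2% with LRRC41 and those of TP53BP1 12.7% with TUBGCP4. Since the strand setting of the counting is unknown, reads in the shared bases cannot be assigned to these genes or to their partners with certainty.

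RefSeq promoter windows (GRCh38.p14) were found for 33 of the 41 genes, and the 250 bases before the start were searched on both strands for short motifs of cell-cycle and housekeeping promoters. RIF1, among the genes that rose most, and CHEK2, which fell, are printed 5′ to 3′ on the strand of the gene, with matches in capitals, because the same CCAAT box (written ATTGG on the other strand) occurs in both. In RIF1 the first match is the cell-cycle homology region TTTGAA.
RIF1, chr2:151409652-151409901, plus strand: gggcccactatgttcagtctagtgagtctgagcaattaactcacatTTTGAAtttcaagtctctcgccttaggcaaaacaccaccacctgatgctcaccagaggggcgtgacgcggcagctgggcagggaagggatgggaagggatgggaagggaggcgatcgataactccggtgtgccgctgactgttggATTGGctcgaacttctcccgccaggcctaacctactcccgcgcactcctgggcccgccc
CHEK2, chr22:28741821-28742070, minus strand: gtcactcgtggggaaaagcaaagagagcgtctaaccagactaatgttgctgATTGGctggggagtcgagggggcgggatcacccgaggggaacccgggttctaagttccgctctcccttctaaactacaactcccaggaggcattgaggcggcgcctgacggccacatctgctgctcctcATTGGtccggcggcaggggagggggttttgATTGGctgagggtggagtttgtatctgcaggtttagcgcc
CCAAT was present in 16 of the 33 genes: 9 of 17 that rose, 1 of 2 that fell and 6 of 14 that did not pass. It was present in 32.0% of 34788 distinct windows of all genes. A gene was counted if any of its windows matched, so counts of genes and shares of windows are not on the same basis. The E2F-type octamers (TTTCCCGC, TTTGGCGC, TTTCGCGC and TTTGCCGC) were found in 3 genes, and in 2.78% of all windows. Of these, RMI1 rose, and FANCA and FANCC did not pass. The ETS core CCGGAAGT was found in PALB2, BRCA2, FANCD2 and RAD50, which all rose, and in 3.41% of all windows. TTTGAA was found in 4 genes, of which 3 rose and 1 did not pass (13.3% of all windows). The NRF1 motif was in 5, of which 4 rose and 1 did not pass (5.05% of all windows). The CRE TGACGTCA was in 3, of which 2 rose and 1 did not pass (1.64% of all windows). A match of letters does not show that a factor binds there.

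The rest of the pathway was read from 4 lists of genes outside the 41, beside shares of 14.3% higher and 12.5% lower over all tested genes, or 16.6% and 15.2% with the offset. Of 39 tested genes of wider recombination and crosslink repair, 11 rose and 5 fell (median log2 fold change 0.02, against 0.05 over all tested genes), and with the offset 11 rose and 2 fell. The lower count is close to the share over all tested genes. GEN1, a resolvase of joined molecules, had 7.31, 16.1 and 9.95 CPM in Lv_LINC00673 libraries, against 3.19, 2.35 and 2.70 CPM in Lv_NC libraries (log2 fold change 2.02, adjusted p = 0.00452), and REV3L, the catalytic subunit of translesion polymerase zeta, had a log2 fold change of 1.42 (adjusted p = 0.0177). UBE2T, the E2 enzyme of the Fanconi core, fell with 23.3, 28.1 and 28.9 CPM in Lv_LINC00673 libraries, against 39.5, 35.8 and 44.2 CPM in Lv_NC libraries (log2 fold change -0.58, adjusted p = 0.0144), and so did ERCC1, which cuts at crosslinks with ERCC4 (log2 fold change -0.55, adjusted p = 0.00961). Another gene of that list was chosen after its value was seen: MRE11, the nuclease of the RAD50 and NBN complex, rose (log2 fold change 1.28, adjusted p = 0.0103).

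In the 20 genes of BRCA1 complexes and chromatin ubiquitin signalling, 7 rose and 3 fell (median 0.34), with the chromatin remodeller ATRX at a log2 fold change of 1.29 (adjusted p = 0.0086) among those that rose, and the acetyltransferase KAT5 at -0.49 (adjusted p = 0.0112) and BABAM1 at -0.40 (adjusted p = 0.023) at the low end. With the offset 8 rose and 0 fell, KAT5 and BABAM1 standing at -0.18 and -0.01. Of 18 genes of end joining and shieldin, 4 rose and 1 fell (median -0.10, with 3 and 1 by the offset, where the higher count is close to the share of all genes in that fit). POLQ, the polymerase of alternative end joining, had a log2 fold change of 1.18 (adjusted p = 0.013) and the nuclease DCLRE1C, known as Artemis, 0.93 (adjusted p = 0.026), and the gene that fell was DYNLL1 (-0.34, adjusted p = 0.0306), which was at 0.03 with the offset. XRCC5, the larger Ku subunit, had the smallest rise of the 4 (log2 fold change 0.75, adjusted p = 0.0186). In the 20 genes of the checkpoint clamp, mediators and outputs, 11 rose and 1 fell (median 0.43, and 11 and 1 with the offset). The cohesin subunit SMC3 (log2 fold change 1.66, adjusted p = 0.0057) and the ATR activator TOPBP1 (1.49, adjusted p = 0.0045) stood highest, and the mitotic kinase PLK1 fell (-0.45, adjusted p = 0.0122) but was not called with the offset (-0.13, adjusted p = 0.0834). WEE1, which restrains CDK1, had the smallest of the rises (log2 fold change 0.43, adjusted p = 0.0422).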

How the data were processed

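For each gene and each of 6 U2OS libraries, the authors deposited a raw read count and an FPKM value. The libraries came from total RNA and the TruSeq RNA kit, according to the protocols in the labels. The build was hg38, per the submitters' processing notes, and the aligner, the counter, the annotation and the strand option are items not given in the sources used here. Column names were matched to sample titles, and 0 columns were left over. Rows that carry no gene symbol (6056 of 50550) held 3.22 to 4.26% of the counts and were kept. In R 4.3.3, edgeR 4.0.16 tested the counts (filterByExpr, TMM factors, robust quasi-likelihood test, 2-sided) with Benjamini-Hochberg adjustment over 21933 genes and a threshold of 0.05. A CPM is a count divided by the TMM-scaled library size, on the usual scale of edgeR. With 3 libraries a group, a permutation test cannot go below p = 0.1, so no single-gene permutation was run.

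The offset was a natural spline (5 degrees of freedom each for GC content and log2 length), fitted in each library over genes with a mean log2 CPM above 2 and GENCODE release 29 transcript values. Alternatives used DESeq2 1.42.0, limma 3.58.1, other factors and filters, the deposited FPKM and each library left out; summing copy and read-through rows, and the offset's genes without the offset, were chosen after seeing the data. The fitting scripts were also run on simulated counts with set fold changes. The outcome is not given here, so it does not bear on the results above. The members and lists were chosen with earlier results of these data known. Named genes are the members that passed and the highest and lowest of each role, and the 2 highest and 2 lowest that passed in each list. A few list genes that this rule names are not reported here.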

Additional observations from a re-analysis of the deposited data

How the results depend on the processing

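Members had at least 103 counts in a library, and RMI1 (103 to 493) and RAD54B (124 to 402) were among those with the fewest and had SE of 0.37 and 0.34. Library totals without TMM factors shifted the median over the tested genes by 0.17 (log2) and gave 4051 higher and 1224 lower genes, against 3145 and 2738. It called 24 members higher and 1 lower (FANCE), against 22 and 2, with a median of 1.0 over the 41. Lower genes over the whole table numbered 1210 and 1205 in limma on log2(FPKM + 1) and log2(FPKM + 0.1), each with 1 lower member. Without one library, higher genes numbered 1453 to 3254 and lower genes 1172 to 3269, and members 16 to 22 and 1 to 2. The fewest higher genes came without Lv_LINC00673 library 2 (1453), Lv_NC library 3 (1578) and Lv_LINC00673 library 3 (1658). RMI2 had an offset value of 0.25, the opposite sign to that from the counts. LINC00673 had a log2 fold change of -0.53 to -0.35 without one library and -0.44 in DESeq2, where it passed; the cause of these changes was not tested.

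The labels do not say whether the replicate numbers of the titles mark a batch. The deviations of same-numbered libraries from their group means had correlations of -0.123, -0.11 and 0.001 over 21933 genes. Such correlations cannot decide the question. The second libraries leaned opposite ways in the GC measure (0.76 in Lv_LINC00673, -0.86 in Lv_NC), yet both had high ATRIP-TREX1 counts (1282 and 1385). A replicate block gave 800 higher and 408 lower genes and 13 higher and 0 lower members. The rises that did not pass with it were those of BARD1, PALB2, XRCC2, WRN, RMI1, EXO1, DNA2, ATM and BLM. In edgeR's test with the block, ATM had an adjusted p of 0.052 and BLM of 0.0559. With the offset as well, the block gave 1977 higher and 1854 lower genes, and 17 higher and 2 lower members.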

Other observations

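Genes of the cell cycle were read from lists outside the 41, where 14.3% of all tested genes rose and 12.5% fell (16.6% and 15.2% with the offset). Of 22 G2/M genes, 11 rose and 2 fell (median log2 fold change 0.64), and with the offset 13 rose and 3 fell (median 0.52). CENPF, a kinetochore protein, had 46.8, 73.0 and 49.8 CPM in Lv_LINC00673 libraries, against 23.2, 12.5 and 15.5 CPM in Lv_NC libraries (log2 fold change 1.73, adjusted p = 0.00452 in edgeR's quasi-likelihood test). The kinetochore motor CENPE had a log2 fold change of 1.68 (adjusted p = 0.00469). CDC20, the activator of the anaphase-promoting complex, fell with 492, 423 and 441 CPM in Lv_LINC00673 libraries, against 649, 706 and 656 CPM in Lv_NC libraries (log2 fold change -0.57, adjusted p = 0.00502). The mitotic kinase gene AURKB fell too (log2 fold change -0.44, adjusted p = 0.0167), but was at -0.02 with the offset. Of 24 S phase genes, 9 rose and 3 fell (median -0.08), and with the offset 7 rose and 0 fell; the 3 that fell are no more than the share over all tested genes. The polymerase subunit POLA1 (log2 fold change 1.42, adjusted p = 0.00647) and the cyclin CCNE2 (1.38, adjusted p = 0.0121) stood highest, with the helicase subunit MCM7 (-0.33, adjusted p = 0.0311) and the transcription factor E2F1 (-0.32, adjusted p = 0.0399) lowest, neither of them called with the offset.

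Of 22 target genes of p53, 3 rose and 9 fell (median log2 fold change -0.16), and with the offset 3 rose and 8 fell. The count that rose is close to the 14.3% of all tested genes, and 12.5% of all fell. GADD45A, a growth-arrest gene, had 222, 199 and 195 CPM in Lv_LINC00673 libraries, against 402, 440 and 392 CPM in Lv_NC libraries (log2 fold change -1.0, adjusted p = 0.0014). AEN, an apoptosis nuclease, had a log2 fold change of -0.66 (adjusted p = 0.0045). MDM2, which degrades p53, had 42.9, 65.1 and 59.2 CPM in Lv_LINC00673 libraries, against 33.7, 21.8 and 31.6 CPM in Lv_NC libraries (log2 fold change 0.94, adjusted p = 0.0121), and CCNG1 had a log2 fold change of 0.84 (adjusted p = 0.0345).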
